A study of Rattus norvegicus with 6 samples.

Results

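Cathepsins are proteases of the lysosome, and cystatin C is a secreted inhibitor of the cysteine cathepsins. In the exocrine pancreas they are studied because acinar cells make large amounts of trypsinogen, the inactive precursor of trypsin. Cathepsin B can cut trypsinogen into active trypsin, cathepsin L can cut it into an inactive form, and cystatin C can block both enzymes. These roles are known from other work and are given here as background.

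The genes described are cathepsins B, D, L, C, H, K, S, E and Z (Ctsb, Ctsd, Ctsl, Ctsc, Ctsh, Ctsk, Ctss, Ctse and Ctsz) and cystatin C (Cst3). They were chosen by name, as every probe set annotated to 1 of these 10 symbols alone. All 10 genes of 10411 on the array had such a probe set, on 12 of 15866 probe sets, because Ctsl and Ctsc are each read by 2. The study asked how chronic ethanol consumption affects the rat pancreas. Whole pancreas came from 3 rats on a control diet and 3 rats on an ethanol diet, 1 array per rat. Not given in the sources used here: strain, sex, age, ethanol dose and duration. The diet is thus the only stated difference between the groups.

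Values were deposited as intensities, the brightness of a probe set after background subtraction. Across all probe sets, which are not independent replicates, arrays correlated with r from 0.925 to 0.944 within a diet and from 0.913 to 0.929 between diets. The tissue label fitted the brightest acinar marker. The carboxypeptidase Cpa1 read 163511 ± 2891 in control and 165503 ± 3117 in ethanol rats (SD, n = 3), where array maxima ran from 163449 to 171742. All 11 acinar markers with a probe set had a mean intensity above 100. So had all macrophage, stellate and fibroblast, duct and erythroid markers with a probe set, so that cut-off does not tell tissues apart. Summed over the list, acinar markers ran from 1276401 to 1300181 on control and from 1302151 to 1366928 on ethanol arrays.

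No cathepsin and no cystatin C probe set passed the test between diets. Probe sets with a mean intensity of about 391 or more were tested, which kept 10 of the 12 and left out Ctsk and Ctse. Called means an adjusted p under 0.05 from limma, with adjustment over all 9520 tested probe sets. By that rule 0 of 10 were called, beside 0.410% of all tested probe sets. Of the 10, 2 were higher and 0 lower by an unadjusted limma p under 0.05, both of them probe sets of Ctsc, beside 18.4% of all tested probe sets in either direction. The median log2 change, ethanol minus control, was 0.019 over the 10 and 0.0002 over all tested probe sets. Sizes ran from -0.32 for Cst3 to 0.67 for a probe set of Ctsc. The median size of a change without its sign was 0.134 for the 10 and 0.21 for all tested probe sets.

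**Figure D1:**
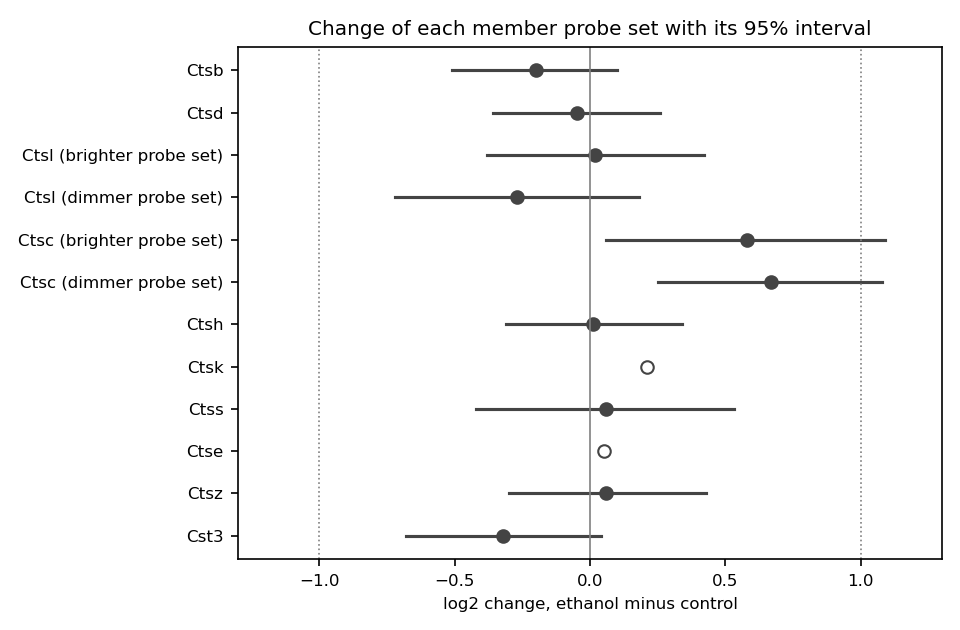
Log2 change of each probe set, ethanol minus control diet, on the log2(intensity + 50) scale. Filled points have a 95% interval from limma as a line, open points (Ctsk and Ctse) were below the intensity filter and were not tested, and dotted lines mark a 2-fold change. For 8 of the 10 tested probe sets the interval lies within 2-fold, and both probe sets of Ctsc reach beyond it on the higher side.

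The intervals show what 3 rats per diet could resolve. For 8 of the 10 probe sets the 95% interval of the change lay wholly within 2-fold in either direction, as it did for 86.6% of all tested probe sets. The standard errors ran from 0.13 to 0.23 on the log2 scale.

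Ctsb, the cathepsin that can activate trypsinogen, read 9911, 11282 and 10199 in control replicates 1, 2 and 3 and 8858, 9373 and 8960 in ethanol replicates 1, 2 and 3. All 3 ethanol arrays lay below all 3 control arrays, but the gap between the nearest arrays was narrow. The mean went from 10464 ± 723 to 9064 ± 273 (SD, n = 3), a log2 change of -0.20 (SE 0.13, 95% interval -0.51 to 0.10, limma adjusted p = 0.453). In fold terms the ethanol mean was 0.868 of control, with an interval from 0.701 to 1.07. In whole tissue, fewer cells of a type and less RNA per cell cannot be told apart.

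Cst3, the inhibitor, showed the same arrangement. It read 9747, 11028 and 12944 in control rats and 8474, 9662 and 8750 in ethanol rats. The highest ethanol array lay just under the lowest control array, and control replicate 3 was the highest of all. The mean was 11240 ± 1609 in control and 8962 ± 622 in ethanol rats, a log2 change of -0.32 (SE 0.16, 95% interval -0.68 to 0.04, limma adjusted p = 0.322). Without control replicate 3 the change was -0.21.

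Ctsb and Cst3 were 2 of the 10 tested probe sets on which ethanol arrays lay wholly below control arrays, an arrangement seen on 14.3% of all tested probe sets. The duct markers had summed intensities from 17190 to 18401 on control and from 15329 to 16581 on ethanol arrays (7 of 10 listed genes had a probe set). Muc1 and Epcam, epithelial surface proteins, were their brightest and made up most of these sums. They were at 9025 ± 454 and 5776 ± 943 in control and 7471 ± 215 and 4827 ± 342 in ethanol rats. Ethanol arrays lay wholly below control arrays for Muc1, and Epcam overlapped. Of the 6 duct markers tested, limma called 0, and 0 had an unadjusted p under 0.05. Their log2 changes ran from -0.27 to 0.45, with a median of -0.195. Whether the share of duct or other epithelial cells has a part in the Ctsb and Cst3 values was not tested.

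**Figure D2:**
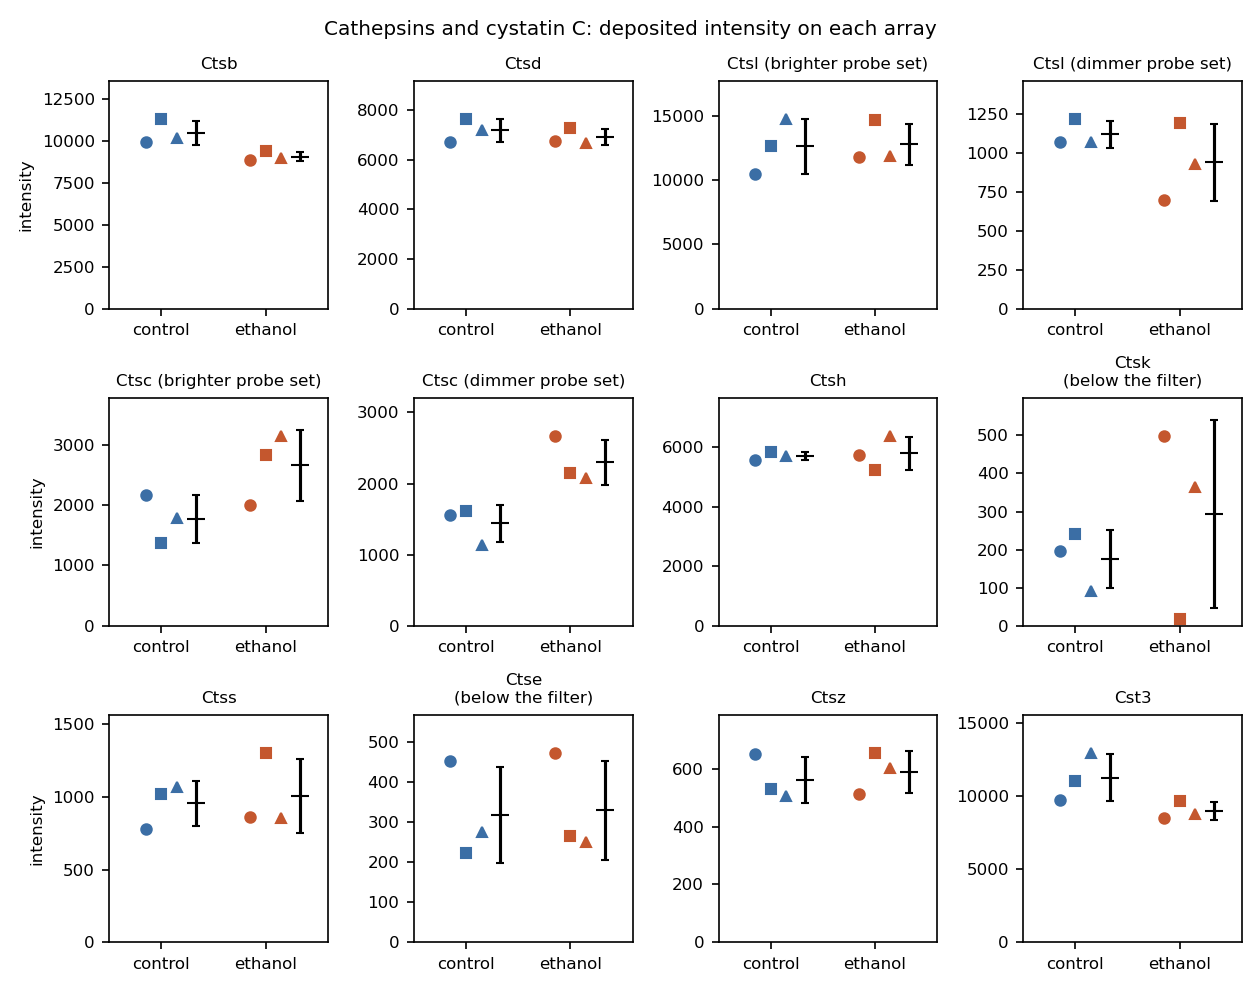
Deposited intensity of each of the 12 probe sets on each array, from 0 upward, with control rats in blue and ethanol rats in orange. Circles, squares and triangles are replicates 1, 2 and 3, and the black bar is the mean with SD over 3 rats. Groups are apart for Ctsb and Cst3, where ethanol is lower, and for the dimmer probe set of Ctsc, where ethanol is higher, and they overlap in the other panels.

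Ctsl, which can inactivate trypsinogen, is read by a bright and a dim probe set designed on the same transcript record. The brighter read 10498, 12635 and 14712 in control and 11811, 14638 and 11865 in ethanol rats. The groups overlapped throughout, and the log2 change was 0.02 (SE 0.18, 95% interval -0.38 to 0.42, limma adjusted p = 0.957). Its sign rested on single arrays: it was -0.10 without control replicate 1 and -0.08 without ethanol replicate 2.

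The dimmer probe set of Ctsl read 1069, 1213 and 1067 in control and 696, 1188 and 927 in ethanol rats. Ethanol replicates 1 and 3 lay below the controls and replicate 2 lay among them. Its log2 change was -0.27 (SE 0.20, 95% interval -0.72 to 0.18, limma adjusted p = 0.499). It was -0.08 without ethanol replicate 1 and -0.45 without ethanol replicate 2. Averaged over both probe sets, the change of Ctsl was -0.12.

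The ratio of Ctsb to Ctsl on the same array sets the activating against the inactivating enzyme, at the level of transcript signal. Its absolute size depends on the 2 probe sets and is no molar ratio, so only the comparison between diets is read. With the brighter Ctsl probe set the ratio was 0.944, 0.893 and 0.693 in control and 0.750, 0.640 and 0.755 in ethanol rats. Control replicate 3 lay among the ethanol rats, so the groups overlapped. The mean was 0.843 ± 0.133 in control and 0.715 ± 0.0649 in ethanol rats (SD, n = 3), a difference of -0.23 on the log2 scale (two-sided exact permutation p = 0.3).

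With the dimmer Ctsl probe set, an alternative chosen after the data were seen, the direction of that ratio turned. It was 9.27, 9.30 and 9.56 in control and 12.7, 7.89 and 9.67 in ethanol rats. The controls lay close together while the ethanol rats lay on both sides of them, and the log2 difference was 0.06 (two-sided exact permutation p = 0.7). No direction of the Ctsb to Ctsl ratio can therefore be given.

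The ratio of Ctsb to its inhibitor Cst3 was 1.02, 1.02 and 0.788 in control and 1.05, 0.970 and 1.02 in ethanol rats. Control replicate 3 was low and the other arrays were near 1. The means were 0.943 ± 0.134 and 1.01 ± 0.0388 (SD, n = 3), a log2 difference of 0.11 (two-sided exact permutation p = 0.5), and without control replicate 3 it was -0.01. With adjustment over the 2 ratios both exact permutation p-values became 0.5. The smallest p that 6 arrays in 2 groups of 3 allow is 0.1.

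**Figure D3:**
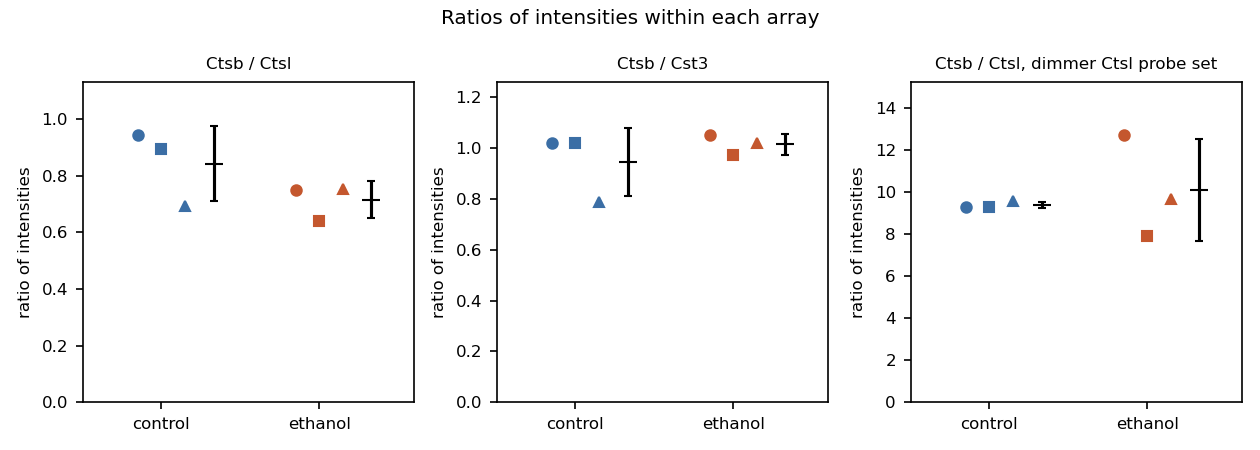
Ratio of the intensity of Ctsb to that of Ctsl or Cst3 on each array, from 0 upward, with control rats in blue and ethanol rats in orange. Symbols are replicates 1, 2 and 3 and the black bar is the mean with SD over 3 rats. The groups overlap in all 3 panels, and the mean ethanol ratio is lower with the brighter Ctsl probe set (0.715 against 0.843) and higher with the dimmer (10.1 against 9.38).

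Trypsinogens, which cathepsins B and L can cut, and an inhibitor of trypsin read as follows on the same arrays. The trypsinogen Prss1 was at 124948 ± 3244 in control and 130098 ± 4580 in ethanol rats, and Prss2 at 95288 ± 8016 and 109203 ± 6176. Spink1, the trypsin inhibitor of the acinar cell, was at 68031 ± 10500 and 71516 ± 10604 on its brightest probe set. None was called (limma adjusted p of 0.844, 0.483 and 0.862). The ethanol arrays of Prss2, from 102587 to 114817, lay above its control arrays, from 86242 to 101511. That arrangement was seen on 11.1% of all tested probe sets. Prss1 and this Spink1 probe set overlapped between diets. In a list of 10 trypsinogens and Spink genes, 5 were tested, and limma called 0. All 5 log2 changes were positive, from 0.03 to 0.24, and 2 of the 5 had ethanol arrays wholly above control arrays. Array maxima ran from 163449 to 171742, and whether saturation touches these values was not tested.

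Ctsd, an aspartic protease of lysosomes that can process other cathepsins, read 6707, 7622 and 7205 in control and 6769, 7290 and 6679 in ethanol rats. The groups overlapped, and the log2 change of -0.05 was among the smallest here (SE 0.14, 95% interval -0.36 to 0.26, limma adjusted p = 0.866).

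Ctsd is also the member whose promoter holds the 8-base motif TCACGTGA, an E-box form of the kind that the lysosomal transcription factor Tfeb is known to bind. RefSeq windows of 300 bases, from 250 before a gene's start to 50 after it, were held for 9 of the 10 genes, all but Ctsb. The motif, searched on both strands (it is its own reverse complement), was in 1 of the 9 and in 0.777% of all 33469 windows. Its core CACGTG, which it contains, was likewise in 1 of the 9 and in 6.42% of all windows. The 60 bases up to the start of Ctsd (GRCr8, chr1:206968822-206968881, minus strand) are shown so that the motif can be seen 3 bases before the gene's start, with the motif in capitals.
Ctsd: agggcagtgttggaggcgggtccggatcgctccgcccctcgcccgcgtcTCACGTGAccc

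Tfeb itself read 1691, 1686 and 1669 in control and 4085, 1225 and 1857 in ethanol rats. The control rats were nearly equal, and ethanol replicate 1 stood far above the other 5 arrays. The log2 change of 0.32 was not called (SE 0.37, limma adjusted p = 0.675). On ethanol replicate 1 Ctsd read 6769, and on the other arrays from 6679 to 7622. Whether Tfeb has a part in the Ctsd values was not tested. A match of letters is no evidence of binding, and no binding was measured.

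Ctsc, or dipeptidyl peptidase I, trims the ends of granule proteases of leukocytes and mast cells and so activates them. Its brighter probe set read 2173, 1367 and 1782 in control and 2012, 2846 and 3151 in ethanol rats. Ethanol replicates 2 and 3 lay above all controls and ethanol replicate 1 lay among them. The mean was 1774 ± 403 in control and 2670 ± 590 in ethanol rats, a log2 change of 0.58 (SE 0.23, 95% interval 0.06 to 1.09, limma adjusted p = 0.229).

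On the dimmer probe set of Ctsc the groups were apart. It read 1560, 1619 and 1140 in control and 2666, 2150 and 2084 in ethanol rats, so all 3 ethanol arrays lay above the controls. The mean was 1440 ± 261 and 2300 ± 319, a log2 change of 0.67 (SE 0.18, 95% interval 0.25 to 1.08, limma adjusted p = 0.134). Ethanol replicate 1 was the highest array on this probe set and the lowest ethanol array on the other. Of the 10 tested probe sets this was the 1 with ethanol wholly above control, beside 11.1% of all tested probe sets.

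Over 15 alternative settings the limma adjusted p of the brighter Ctsc probe set ran from 0.149 to 0.492 and that of the dimmer from 0.0684 to 0.269. With both probe sets averaged it was 0.101. The dimmer was under 0.10 with a variance trend (0.0684) and when the filter was raised to the 60th percentile (0.0819). Neither probe set was under 0.05 in any setting.

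Markers of blood and immune cells were read beside Ctsc. Summed macrophage markers (13 of 16 listed genes had a probe set) ran from 10128 to 11720 on control and from 10973 to 11440 on ethanol arrays, with overlap. Lyz2, a lysozyme of macrophages and the brightest of them, was at 3101 ± 523 and 3131 ± 461, and Aif1 at 2065 ± 110 and 2761 ± 627 (log2 change 0.39, SE 0.19, limma adjusted p = 0.320). Of the 9 macrophage markers tested, limma called 0, 1 had an unadjusted p under 0.05, and the log2 changes ran from -0.51 to 0.39 with a median of 0.005. The 1 was C1qa, a complement subunit made by macrophages and named here after its values were seen. It read 754, 828 and 1045 in control and 614, 664 and 512 in ethanol rats (log2 change -0.51, SE 0.17, limma adjusted p = 0.177), wholly below the controls. Summed lymphoid markers (10 of 13) ran from 6224 to 6911 on control and from 4518 to 6037 on ethanol arrays, with Cd8a at a mean under 100. Their brightest were Cd74 and RT1-Da, genes of antigen presentation given below with Ctss, so this sum is not one of lymphoid cells alone. Of the list 4 were tested, and limma called 0. By an unadjusted p under 0.05, 2 of the 4 were lower, beside 18.4% of all tested probe sets in either direction. Ethanol arrays lay wholly below control arrays for 2 of the 4, beside 14.3% of all tested probe sets. The 4 log2 changes ran from -0.62 to -0.1, with a median of -0.56. Summed erythroid markers (5 of 9) ran from 15625 to 23125 on control and from 25817 to 33618 on ethanol arrays, so these were wholly higher with ethanol. Hbb, a globin, was at 12799 ± 2828 and 22200 ± 3102, and Hba-a3 at 3492 ± 866 and 5413 ± 730. Of the 4 erythroid markers tested, limma called 0 (lowest limma adjusted p = 0.107), and 3 had an unadjusted p under 0.05. Ethanol arrays lay wholly above control arrays for 3 of the 4, beside 11.1% of all tested probe sets. The part of blood or immune cells in the Ctsc values was not tested.

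Ctss, which trims the invariant chain in antigen-presenting cells, read 780, 1018 and 1068 in control and 860, 1302 and 855 in ethanol rats. The groups overlapped, with ethanol replicate 2 the highest array. The log2 change was 0.06 (SE 0.21, 95% interval -0.42 to 0.53, limma adjusted p = 0.910). The invariant chain Cd74 was at 2609 ± 422 in control and 1876 ± 636 in ethanol rats, and RT1-Da, an MHC class II chain, at 1795 ± 120 and 1173 ± 269. Neither was called (limma adjusted p of 0.345 and 0.161), although the 3 ethanol arrays of RT1-Da all lay below the controls.

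Ctsh, an aminopeptidase, read 5579, 5860 and 5722 in control and 5760, 5252 and 6377 in ethanol rats. The controls lay within a narrow band and the ethanol rats on both sides of it. The log2 change was 0.01 (SE 0.14, 95% interval -0.31 to 0.34, limma adjusted p = 0.966).

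Ctsz, a carboxypeptidase, read 652, 530 and 504 in control and 512, 654 and 601 in ethanol rats. The groups overlapped almost fully, with a log2 change of 0.06 (SE 0.16, 95% interval -0.30 to 0.43, limma adjusted p = 0.864).

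Ctsk and Ctse were too dim to test. Ctsk, a collagen-degrading cathepsin best known from osteoclasts, read 195, 240 and 91 in control and 498, 18 and 365 in ethanol rats. The ethanol rats gave both the highest and the lowest of its values, and the log2 difference of 0.21 became 1.15 without ethanol replicate 2 and -0.36 without ethanol replicate 1. Summed markers of stellate cells and fibroblasts, which also handle collagen, overlapped, from 14897 to 23418 on control and from 15010 to 20783 on ethanol arrays (12 of 12 had a probe set). Their brightest, the collagen Col3a1 and the proteoglycan Dcn, were at 6260 ± 2055 and 4555 ± 944 in control and 5974 ± 1548 and 4135 ± 1049 in ethanol rats.

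Ctse, an aspartic protease best known from gastric epithelium and immune cells, read 451, 224 and 276 in control and 472, 265 and 251 in ethanol rats. Replicate 1 was the highest array on each diet, and the log2 difference was 0.05.

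Other genes of the lysosome, together with cystatins and other protease inhibitors, were read in 5 lists. Each gene was read on its tested probe set of highest mean. Of 113 listed genes 83 had a probe set and 71 were tested, and limma called 0 of them. An unadjusted p under 0.05 was reached by 2 with higher and 3 with lower ethanol means, 7.04% of the 71, where 18.4% of all tested probe sets reached it. The ethanol arrays lay wholly above the controls for 5 genes (7.04%, beside 11.1% of all tested probe sets) and wholly below for 7 (9.86%, beside 14.3%). The median log2 change over the 71 was -0.042, beside 0.0002 over all tested probe sets, with a range from -0.66 to 0.42. That median was 0.006 without control replicate 1 (72 genes tested) and 0.005 without ethanol replicate 1.

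Among other cathepsins and legumain, 4 genes were tested and their median was -0.213. Their members of smallest p were legumain (Lgmn, -0.29, SE 0.22), Ctsf (-0.18, SE 0.15) and Ctsj (-0.24, SE 0.44). Lgmn, an endopeptidase that can process cathepsins, read 4312 in control replicate 1 and between 2286 and 2771 on the other arrays. The 4 changes were all negative, but none was called (lowest limma adjusted p = 0.511).

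Among other cystatins and protease inhibitors, 5 genes were tested, with a median of 0.061. Serpinb6a, a cytosolic serine protease inhibitor, read 2500, 3023 and 3063 in control and 1237, 1997 and 2275 in ethanol rats, the latter all lower (log2 change -0.66, SE 0.23, limma adjusted p = 0.185). Cst11 (0.30, SE 0.15) and the plasma glycoprotein Ahsg (0.19, SE 0.33) overlapped between diets.

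The 24 tested hydrolases and their cofactors had a median of 0.018. Asah1, the acid ceramidase, read 1176, 1124 and 785 in control and 684, 731 and 548 in ethanol rats, again with the groups apart (log2 change -0.60, SE 0.19, limma adjusted p = 0.167). A second probe set of Asah1 gave -0.41 (SE 0.16), also with the groups apart. The sialidase Neu1 (0.37, SE 0.17) and the hexosaminidase subunit Hexa (0.36, SE 0.17) had positive changes and were not called (limma adjusted p of 0.289 and 0.300).

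The 22 tested membrane proteins and subunits of the proton pump had a median of -0.019. Their members of smallest p were the cation channel Mcoln1 (0.42, SE 0.15) and the pump proteins Atp6ap1 (0.33, SE 0.15) and Atp6v1d (-0.33, SE 0.16). The 16 tested genes of sorting and control had a median of -0.099, with the mannose 6-phosphate receptor Igf2r at 0.42 (SE 0.17), the retromer subunit Vps26a at -0.40 (SE 0.17) and Rab9a, a GTPase of late endosomes, at -0.53 (SE 0.24). Igf2r carries newly made hydrolases, cathepsins among them, to the lysosome, and its 3 ethanol arrays, from 2771 to 3872, lay above the 3 controls, from 2302 to 2694. Its limma adjusted p was 0.240, and its other probe set gave 0.20 (SE 0.18) with overlap.

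**Figure D4:**
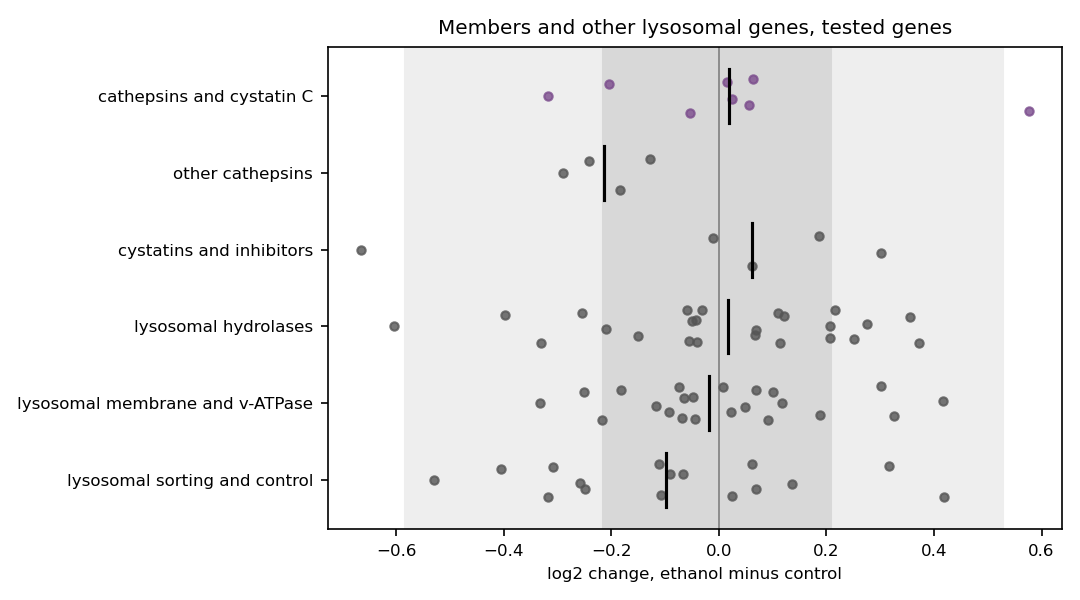
Log2 change, ethanol minus control, of each tested gene, 1 point per gene, with the list median as a black line. Rows are the cathepsin and cystatin C group and 5 lists of other lysosomal genes, cystatins and protease inhibitors. The dark and light bands hold the middle 50% and 90% of all 9520 tested probe sets (from -0.215 to 0.208 and from -0.583 to 0.528). Ctsc, at 0.58, is the one member outside the light band, and Cst3, at -0.32, is the other member outside the dark one.

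The profile of Ctsb over the 6 arrays was set against 7992 other probe sets of 1 gene, each profile centred and scaled to an SD of 1. The nearest, by root mean square difference, were Fdft1 (0.105), Pyurf (0.118), Ormdl3 (0.126), Rbck1 (0.127) and Ift25 (0.163), where the median over all was 1.27. All 5 shared with Ctsb the order in which control replicate 2 was highest and ethanol replicate 1 lowest. They were picked for likeness to Ctsb, so this order and their lower ethanol values follow from the choice. Whether any of them is regulated together with Ctsb was not tested. Fdft1, the squalene synthase of sterol synthesis, was at 2351 ± 598 in control and 1495 ± 218 in ethanol rats, and its log2 change of -0.62 was not called either (limma adjusted p = 0.172). Among the members, Ctsd (0.638) and Cst3 (0.639) came closest to Ctsb, at ranks 840 and 848, and the brighter Ctsc probe set (1.73), at rank 7534, was the farthest.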

How the data were processed

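Pancreas RNA of 6 rats was labelled with biotin and hybridised to 1 single-colour array each, per the labels' protocols. The authors deposited intensities, which from the values are linear, background-subtracted (940 to 955 values per array below 0) and nearly equal between arrays in median (543 or 544) and quartiles (221 to 223 and 1158 to 1160), less so at the 99th percentile (16150 to 16676). Not given in the sources used here: scanner, software, normalization. Scaling to equal medians would remove differences in total RNA. Of 15923 probe sets, 57 controls were left out. Of the rest, 12783 had 1 symbol in the platform annotation, 312 had several and 2771 lacked one. RefSeq (GRCr8) held 12748 of the gene IDs.

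Values below 0 were set to 0, 50 was added and log2 taken, which understates changes of dim probe sets. Probe sets at or above the 40th percentile of mean log2 were tested between diets by limma 3.58.1 under R 4.3.3 (2 groups, Benjamini-Hochberg). The procedure was tested on simulated data. Ratios were tested by exact permutation. The number of arrays limits the precision. Named genes were the members, the 3 of smallest p in each of the 5 lists of lysosomal and inhibitor genes, and the 2 of highest mean per marker list. Also named were 4 genes set by name (Prss1, Prss2, Spink1, Tfeb) and the 5 nearest to Ctsb. The members and lists were chosen with earlier results of these data known. Islet markers were summed too, from 148753 to 182168 on control and from 115767 to 181731 on ethanol arrays, with Ins2 and Ins1 the brightest and Pcsk2 at a mean under 100. Alternatives were other constants, normalizations, filters and thresholds, a variance trend, averaged probe sets, a replicate block and each array left out.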

Additional observations from a re-analysis of the deposited data

How the results depend on the processing

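No probe set of the cathepsins or of Cst3 and no other gene of the 5 lists was called under any of the 16 alternatives. An adjusted p under 0.10 was tried with the other settings unchanged. The count over all probe sets moved far more: limma called 39, against 12 with a constant of 20, 0 without the filter (though 2263 had an unadjusted p under 0.05), 134 with a filter at the 60th percentile, 249 with a variance trend, 228 at an adjusted p under 0.10 and 2 to 38 with 1 array left out. With the replicate number as a block it called 6 in all and 0 of the members. The labels do not say that the numbers pair rats. Deviations of same-numbered arrays correlated at -0.0295, 0.0259 and -0.138, and those of differently numbered arrays from -0.0764 to 0.0949. These values show no pairing but cannot exclude one. The log2 change of Ctsb kept its sign, from -0.24 to -0.14. Changes near 0 turned sign in some settings: the brighter Ctsl probe set (-0.12 with probe sets averaged, -0.10 to 0.14 with 1 array left out), Ctsh (-0.06 to 0.08), Ctss (-0.14 to 0.15) and Ctsz (-0.0092 to 0.17), the last 3 with 1 array left out. Among these were -0.08 for Ctsl without ethanol replicate 2, -0.003 for Ctsh without control replicate 1, -0.08 for Ctss without control replicate 1 and -0.0042 for Ctsz without control replicate 3. The Ctsb to Ctsl ratio turned from -0.23 to 0.06 with the dimmer Ctsl probe set, and the Ctsb to Cst3 ratio ran from -0.01 to 0.18 with 1 array left out. The cause was not tested. Dim signal limited Ctsk and Ctse, which were given by values alone.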

Other observations

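The RefSeq promoter windows of the 9 genes that had one differed in base composition. The share of G and C was 66.7% for Ctsl, 63.7% for Ctsz, 63.0% for Ctsd, 59.7% for Ctsc and 58.0% for Cst3, above the median of 51.7% over all windows of 300 bases. It was 51.3% for Ctsh, 49.3% for Ctse, 48.3% for Ctsk and 45.3% for Ctss. The GC box GGGCGG, searched on both strands, was in the windows of Ctsc, Ctsd, Cst3, Ctsz, Ctsh and Ctsl, 6 of 9, and in 33.1% of all windows.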
